A study of Bos taurus with 9 samples.

Results

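The integrins, classical and related cadherins, and immunoglobulin-type adhesion receptors of bovine endometrial cells were taken as 1 set of genes. Members were chosen by a rule on symbols, which was set with earlier results of these data known. It took integrin alpha and beta subunits with a numbered symbol or ITGAV, numbered cadherins, ICAM genes, VCAM1, numbered nectins, JAM2, JAM3 and F11R. The rule found 52 of the 17162 genes in the table, of which 12 encode integrin alpha subunits, 8 integrin beta subunits, 20 cadherins, 5 ICAM proteins or VCAM1, 4 nectins and 3 junctional adhesion molecules. Expression was deposited as FPKM, a fragment count scaled to transcript length and library size, for 9 RNA-seq libraries. The 3 CON libraries came from untreated cells. The 3 GA libraries came from cells given 1 nM estradiol (E2) and 100 nM progesterone (P4), and the 3 GB libraries from cells given the same hormones and 100 ng/mL of interferon tau (IFNT), the conceptus signal of ruminants that prevents luteolysis. The labels give 12 h of treatment. By the study's methods, IFNT followed the hormones for another 12 h, and when the CON and GA cells were collected is not given separately. Culture time and IFNT therefore cannot be told apart in the comparisons with GB. The study calls the 3 replicates of each group biological, but the number of animals behind the cultures is not given. Each p-value therefore measures the spread between these cultures, which may be technical.

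Integrins are alpha-beta pairs that bind matrix proteins such as fibronectin, laminin, collagen and osteopontin and connect them through talin and kindlin to actin. Cadherins bind cadherins of neighbouring cells and hold beta-catenin, p120-catenin and alpha-catenin on the inner side of the membrane. ICAM1 and VCAM1 are ligands of leukocyte integrins, nectins join neighbouring cells and are anchored to actin by afadin, and JAM proteins lie at tight junctions. In ruminants, integrins and osteopontin at the uterine surface are known for their part in the attachment of the conceptus.

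The cells were labelled as endometrial epithelial cells, which the study purified from abattoir uteri by differential attachment over repeated passages, and the defining markers of epithelium were nearly undetected. Of 12 epithelial markers 11 were in the table, none reached a mean of 0.5 FPKM, and the highest single value was 0.74 FPKM, for MUC1. KRT18 RNA was 0.16 to 0.67 FPKM. The study describes the cells as positive for cytokeratin by immunofluorescence, a protein measure that runs with the label and was not analysed here. The summed epithelial level was 1.29 to 2.01 FPKM in CON, 1.54 to 2.15 in GA, with 1.66 to 2.5 in GB. All 10 stromal fibroblast markers were measured, with summed levels of 16804 to 17394 FPKM in CON, 16994 to 17390 in GA, with 15245 to 15356 in GB. The RNA levels in these libraries therefore go against the label, and the cells are called endometrial cells here. In bulk RNA, fewer cells of a type and less RNA per cell cannot be told apart. The summed FPKM of 6 interferon-induced check genes was 8.59 to 14.8 in the 6 libraries without IFNT and 9033 to 9041 in GB, so the GB libraries carried the response that their label names. The sum of FPKM per library was 1395622 to 1442723. The deposited values hold no counts, and the clean read totals that the study gives for each group were not used here.

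Among the 52 members, 7 had a mean of at least 100 FPKM over the 9 libraries, 9 lay between 10 and 100, 16 between 0.5 and 10, and 20 under 0.5. The highest were ITGB1, the common beta subunit, at 811 to 920 FPKM, ITGA1, a collagen-binding alpha subunit, at 339 to 390 FPKM, and ITGA5, the alpha subunit of the fibronectin receptor, at 287 to 334 FPKM. ICAM1, CDH11, ITGB3 and ITGA8 followed, with library values from 91.9 FPKM for the lowest ITGA8 library to 196 FPKM for the highest ICAM1 library. CDH11 is a cadherin typical of mesenchymal cells. CDH1, the cadherin of epithelium, was 0 to 0.14 FPKM in every library.

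**Figure D1:**
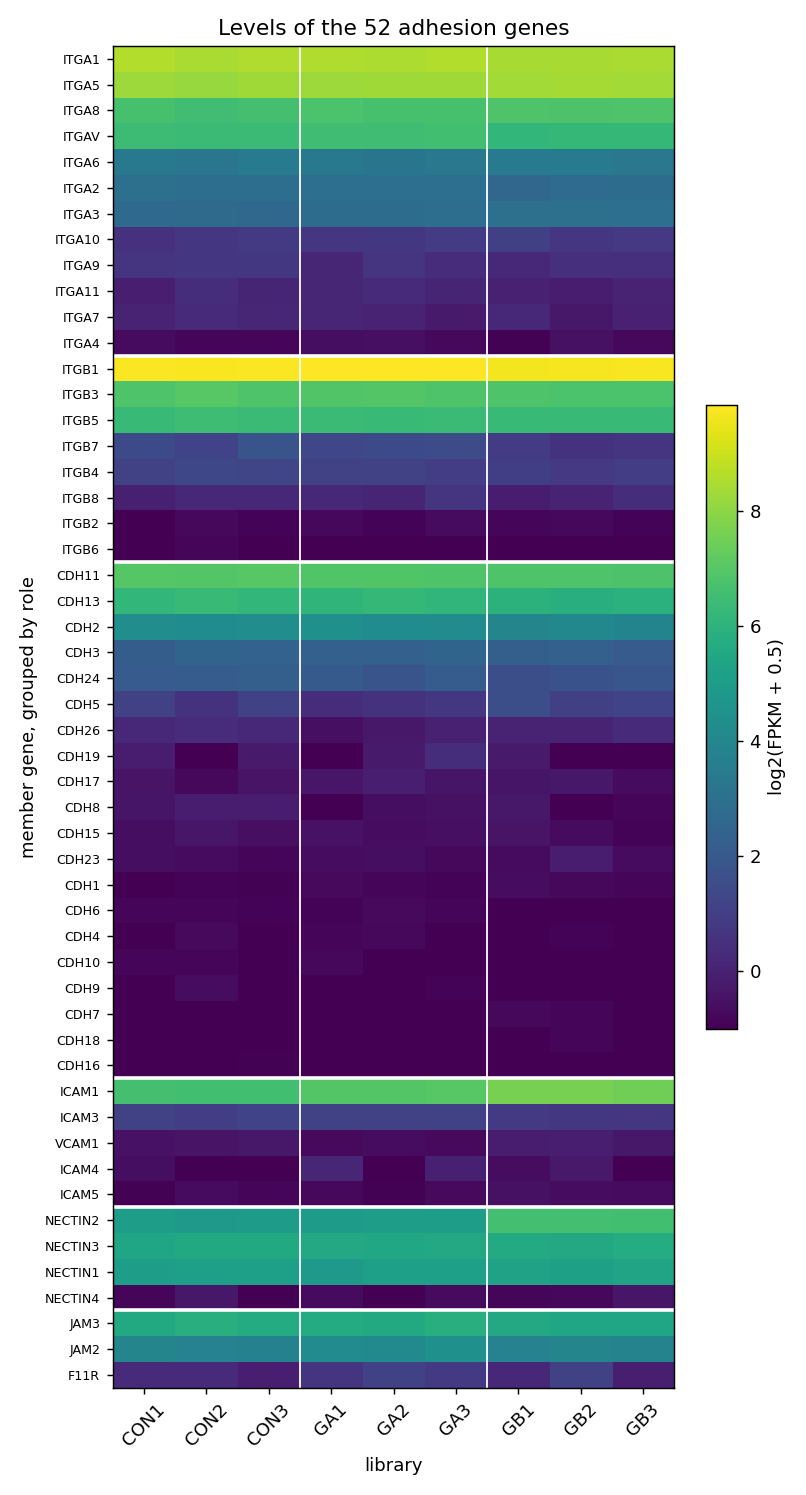
Heat map of log2(FPKM + 0.5) for the 52 members (rows, by gene class) in the 9 libraries (columns, by group, with white lines between groups). ITGB1 was the highest member in every library, and 20 of the 52 members, shown dark, had a mean under 0.5 FPKM.

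Differences were fitted with limma on log2(FPKM + 0.5) over the 12578 genes with a mean of at least 0.5 FPKM, with Benjamini-Hochberg adjustment over all of them, and a fold change on this scale understates the change of low genes. Of the 52 members, 32 were tested. A gene passed at an adjusted p under 0.05 and was called when its log2 fold change was also beyond 1 in either direction.

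In GB against GA, the comparison for the addition of IFNT to hormones, NECTIN2 and ICAM1 rose most clearly. ITGB7, at a low level, had the largest fall (−0.70 on the log2 scale). ITGAV, CDH2, JAM2, ITGB1, CDH13 and ITGA1 fell by smaller amounts, and the last 3 of these did not pass with median-of-ratios scaling. One member, NECTIN2, was called, which is 1 of 32 tested (3.12%) beside 3.64% of all genes. At an adjusted p under 0.05 alone, 4 of 32 members were higher (12.5%; 9.87% of all genes) and 7 of 32 lower (21.9%; 19.2% of all genes), and 21 did not pass. These shares were near those of the whole table. The median log2 fold change was −0.12 over the tested members and −0.075 over all tested genes. With median-of-ratios scaling of the libraries, 6 members were higher and 4 lower, and higher genes made up 52.9% of all genes that passed, in place of 34.0%.

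In GB against CON, the comparison of hormones and IFNT with no treatment, NECTIN2 and ICAM1 had the highest positive differences, and CDH13, ITGAV, CDH2 and ITGB7 fell. NECTIN2 was called, 1 of 32 members beside 4.01% of all genes. Of the 32, 4 were higher at an adjusted p under 0.05 (12.5%; 16.2% of all genes) and 8 were lower (25.0%; 17.3% of all genes). The median was −0.12 for members and −0.016 for all genes. GB vs. GA and GB vs. CON share the GB libraries, so their values are given side by side and are not independent.

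In GA against CON, the comparison for the hormones alone, no member was called, beside 0.0716% of all genes. ICAM1 was higher, the 1 member of 32 to pass at an adjusted p under 0.05, beside 0.246% of all genes higher and 0.207% lower. With median-of-ratios scaling 27.0% of all genes that passed were higher, in place of 54.4%. The median log2 fold change was 0.017 for members and 0.061 for all tested genes.

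**Figure D2:**
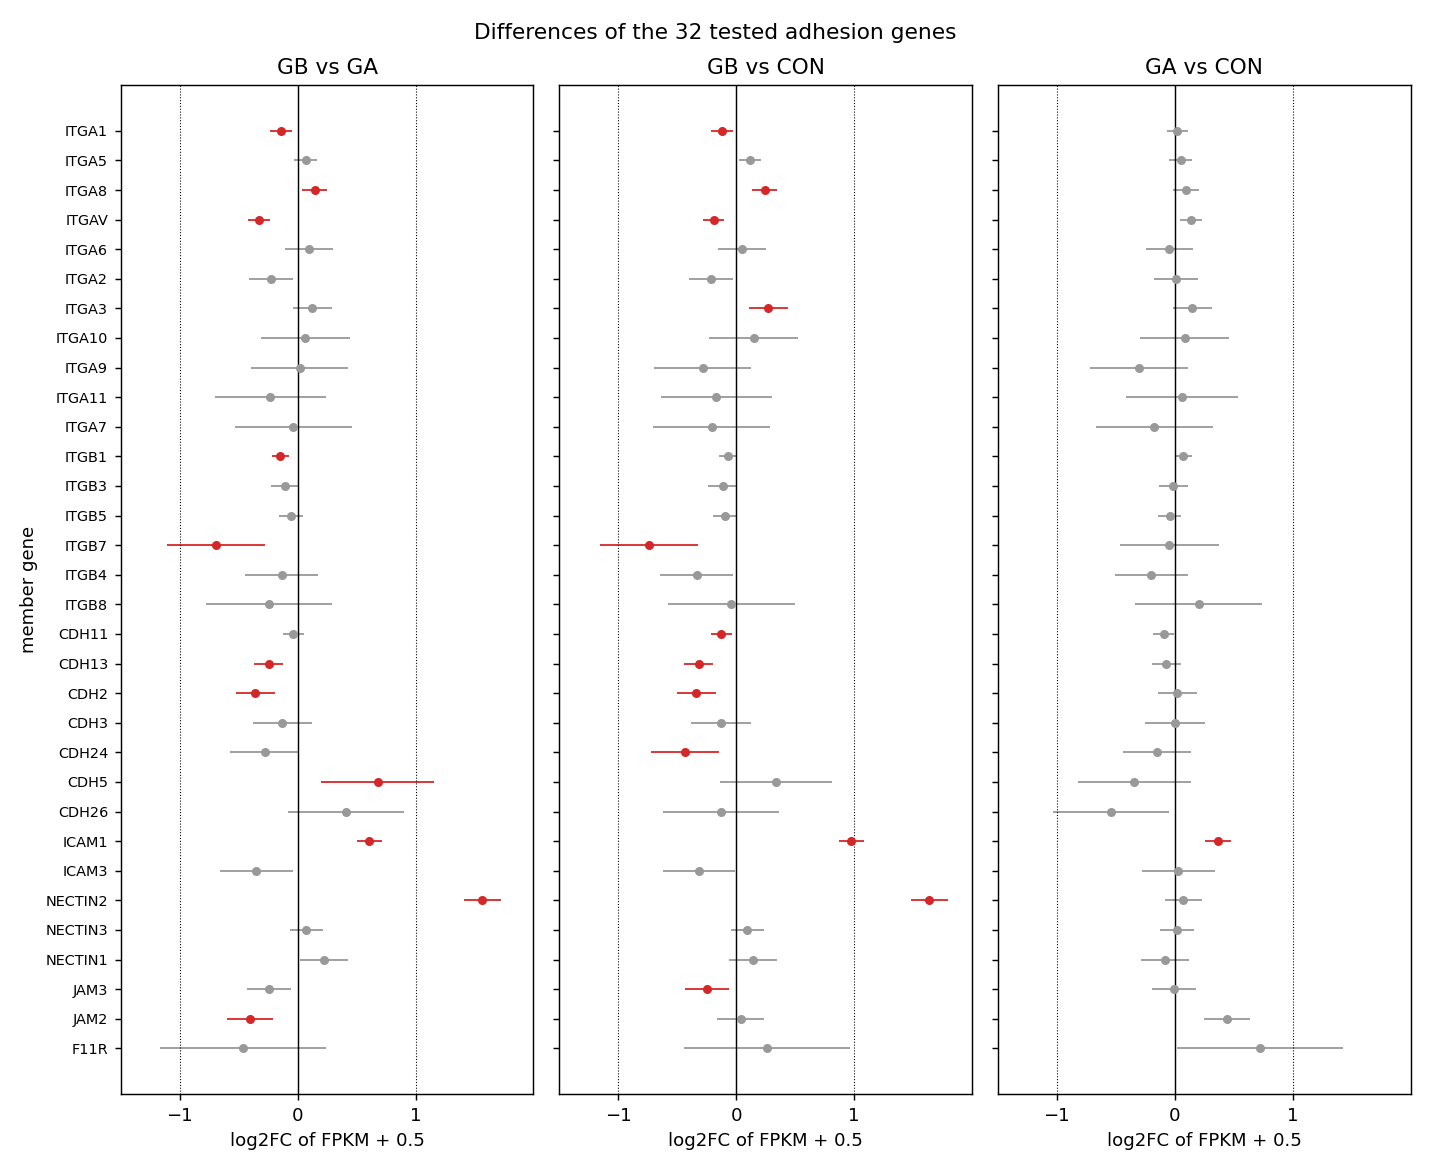
Log2 fold change on the log2(FPKM + 0.5) scale for the 32 tested members in GB vs. GA, GB vs. CON and GA vs. CON, with 95% confidence intervals from limma as bars, red for an adjusted p under 0.05 and grey otherwise, and dotted lines at the fold threshold of 1. NECTIN2 lies furthest to the right in both comparisons with GB, at 1.57 and 1.64, and ICAM1 is the red point of GA vs. CON.

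Of the nectins, NECTIN2 moved and the other measured members did not pass the test. NECTIN2, which also serves as a ligand of the lymphocyte receptors DNAM-1 and TIGIT, was 33.5, 27.6 and 30.4 FPKM in CON, 30.5, 32.3 and 33.2 FPKM in GA, and 95.6, 96.3 and 94.9 FPKM in GB. The GB libraries were all far above the other 6, which overlapped each other. The means were 30.5 ± 2.96, 32 ± 1.39 and 95.6 ± 0.706 FPKM (SD, n = 3 each), so that GB was 2.99 times GA and 3.14 times CON. The log2 fold change was 1.57 (SE 0.070, adjusted p = 2.0e-07) against GA and 1.64 (adjusted p = 1.4e-07) against CON by limma. Over the alternatives tried, the value against GA stayed between 1.53 and 1.64.

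NECTIN3, the preferred partner of other nectins across the junction, was 42.0 to 51.5 FPKM over the 9 libraries with overlapping groups. NECTIN1 was 33.1 to 34.5 FPKM in CON, 27.6 to 34.4 in GA, with 35.0 to 40.3 in GB, with GB above the other libraries, and passed in neither comparison with GB. With median-of-ratios scaling NECTIN1 passed in GB vs. GA (adjusted p = 0.0310). NECTIN4 stayed at 0 to 0.32 FPKM. The summed nectin level was 110 ± 1.28 FPKM in CON, 110 ± 5.26 in GA and 182 ± 4.92 in GB. NECTIN2 made up 27.7 ± 2.90% of it in CON, 29.0 ± 0.175% in GA and 52.6 ± 1.80% in GB. The ratio of NECTIN2 to NECTIN3 FPKM went from 0.674 ± 0.112 in CON and 0.693 ± 0.030 in GA to 1.97 ± 0.128 in GB. The most abundant nectin transcript was thus NECTIN3 without IFNT and NECTIN2 with it.

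ICAM1, a ligand of the leukocyte integrin LFA-1, rose in all 3 comparisons. Its values were 101, 94.7 and 94.7 FPKM in CON, 123, 122 and 129 FPKM in GA, and 195, 196 and 181 FPKM in GB. Every GA library was above every CON library, and every GB library above every GA library. The means were 96.6 ± 3.39, 125 ± 3.88 and 191 ± 8.51 FPKM. GB exceeded GA 1.53 times (log2 fold change 0.61, SE 0.048, adjusted p = 1.69e-05) and CON 1.98 times (0.98, adjusted p = 4.55e-07), the latter just inside the fold threshold. Without CON1 or without GB3 it passed that threshold, which made 2 called members in place of 1. GA exceeded CON 1.29 times (0.37, SE 0.048, adjusted p = 0.0199). That last call was lost without CON1, CON2, GA1, GA2 or GA3 (adjusted p = 0.0510 to 0.0888), in the fit without a variance trend (0.0758) and in the fit of only CON and GA (0.0513), with a log2 fold change of 0.31 to 0.40 throughout.

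VCAM1, the counter-receptor of the ITGA4-ITGB1 integrin, was low, with a mean under 0.5 FPKM, and was not tested. It was 0.23, 0.24 and 0.31 FPKM in CON, 0.10, 0.14 and 0.10 in GA, and 0.39, 0.45 and 0.31 in GB. The GA libraries were lowest, and CON and GB met at 0.31. With no filter on low values its log2 fold change in GB vs. GA was 0.52 (adjusted p = 0.00477), in GB vs. CON 0.22 (0.138) and in GA vs. CON −0.31 (0.186). ICAM3 was 1.14 to 1.3 FPKM in GB and 1.45 to 1.79 in the other 6 libraries and did not pass, but it was lower in both comparisons with GB in the fit without the variance trend (adjusted p = 0.00777 against GA and 0.0102 against CON). ICAM1 made up 98.0% of the summed ICAM and VCAM1 level in CON, 98.3% in GA and 99.0% in GB.

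**Figure D3:**
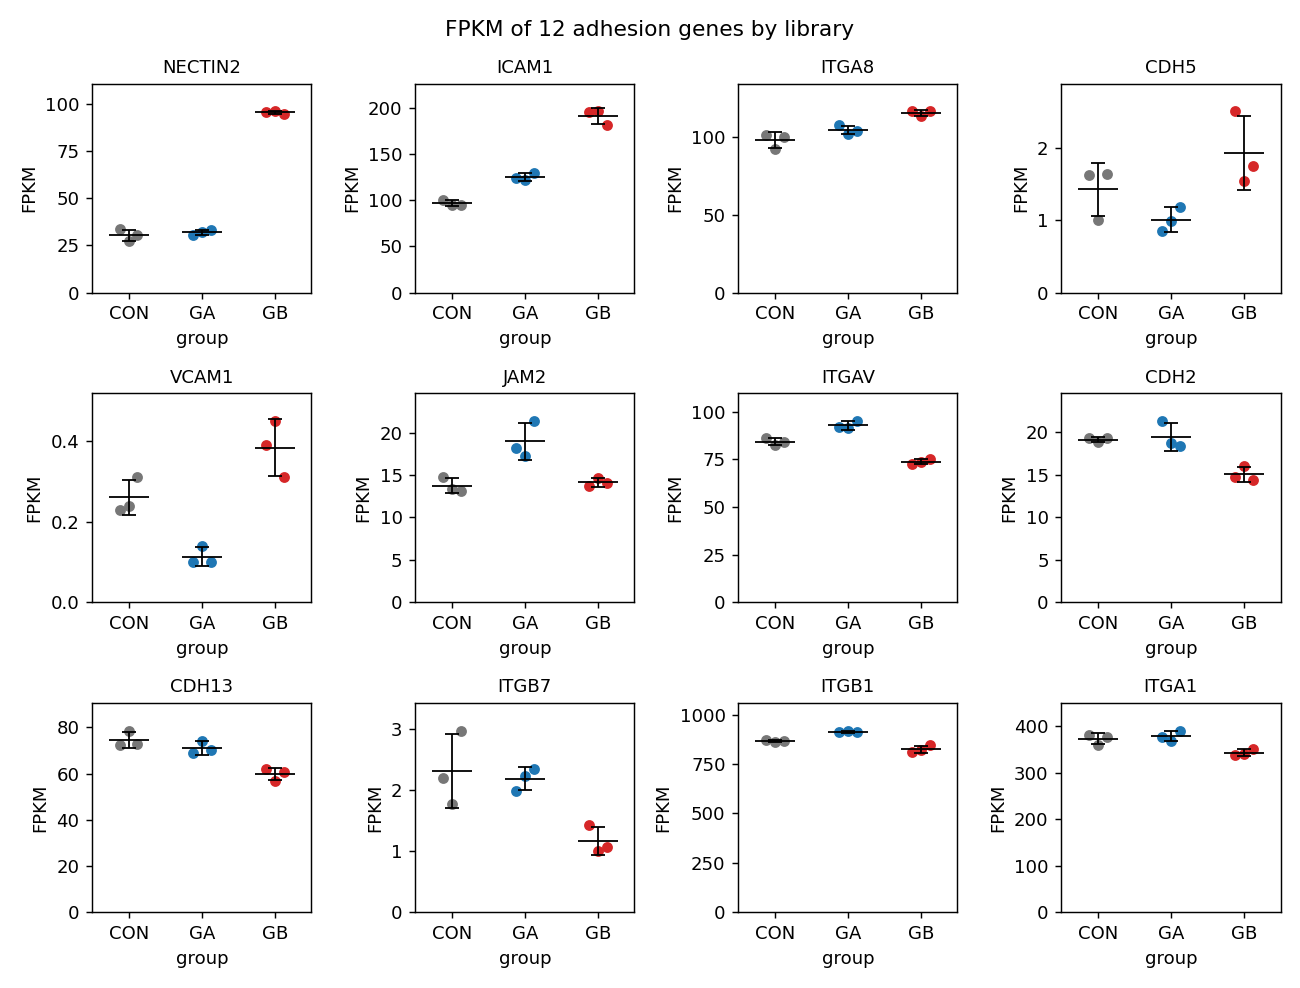
FPKM in each of the 3 CON, 3 GA and 3 GB libraries (points) for 12 members, with the group mean and SD as lines, each panel with its own axis from 0. The GB points lie apart from the others for NECTIN2, at 94.9 to 96.3 FPKM, and ICAM1 steps up from CON to GA to GB.

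Of the abundant integrin alpha subunits, ITGAV and ITGA1 fell and ITGA8 rose in both comparisons with GB, each by a small amount. ITGAV, the subunit of the vitronectin and osteopontin receptors, was 86.1, 82.5 and 84.3 FPKM in CON, 91.7, 91.3 and 95.2 in GA, and 72.4, 73.6 and 75.3 in GB. The 3 groups did not overlap, with GA highest and GB lowest. ITGAV fell in GB vs. GA (−0.33, SE 0.041, adjusted p = 0.00035) and in GB vs. CON (−0.19, adjusted p = 0.00614), and its difference in GA vs. CON was 0.14 (adjusted p = 0.136). Both falls held in every alternative tried.

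ITGA8, which pairs with ITGB1 and binds nephronectin and other matrix proteins with the same short motif, had the opposite sign. It was 101, 91.9 and 99.8 FPKM in CON, 107, 102 and 104 in GA, and 117, 113 and 117 in GB. The groups did not overlap, with GB highest. ITGA8 rose in GB vs. CON (0.24, adjusted p = 0.00421) under every alternative and in GB vs. GA by 0.14 (SE 0.048, adjusted p = 0.0484), a call lost without CON3 or without any 1 of the GA and GB libraries (adjusted p = 0.0573 to 0.141) and without the variance trend (0.0791). The ratio of ITGA8 to ITGAV was 1.16 ± 0.039 in CON, 1.13 ± 0.041 in GA and 1.57 ± 0.037 in GB.

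ITGA1 fell slightly in both comparisons with GB. It was 382, 359 and 377 FPKM in CON, 377, 368 and 390 in GA, and 339, 339 and 351 in GB, with GB below the other 6 libraries. The difference was −0.14 (SE 0.040, adjusted p = 0.0270) against GA and −0.12 (adjusted p = 0.0473) against CON. The first call was lost without GA1, GA3, GB1 or GB2 (adjusted p = 0.0683 to 0.0955) with scaling to the same sum (0.0615) or by median of ratios (0.196), and without the variance trend (0.0632). The second was lost when any library but CON2 was left out (0.0509 to 0.127), without the variance trend (0.0951) and in the fit of only CON and GB (0.0818).

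ITGA5 was 309, 287 and 313 FPKM in CON, 307, 316 and 317 in GA, and 328, 334 and 323 in GB. The GB libraries were highest, and neither difference passed (0.067, adjusted p = 0.277, against GA and 0.12, adjusted p = 0.0625, against CON). It passed in both comparisons with median-of-ratios scaling. ITGA1 and ITGA5 together made up 76.4% of the summed alpha FPKM in CON, 75.5% in GA and 75.6% in GB, while the share of ITGA1 was 42.1 ± 0.295%, 41.3 ± 0.550% and 38.6 ± 0.605%, and that of ITGA5 34.3 ± 0.452%, 34.2 ± 0.673% and 37.0 ± 0.729%. The total over the alpha subunits was 884 ± 32.8, 916 ± 16.1 and 888 ± 4.49 FPKM in CON, GA and GB.

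The laminin-binding subunits were low beside these. ITGA3 was 5.82 to 6.25 FPKM in CON, 6.63 to 7.06 in GA, with 7.21 to 7.63 in GB without overlap, and rose in GB vs. CON (0.27, adjusted p = 0.0192). That call was lost without CON3, GB1 or GB2 (adjusted p = 0.0532 to 0.0612). ITGA6 was 8.69 to 10.8 FPKM with overlapping groups. ITGA2, a collagen receptor subunit like ITGA1, was 7.12 to 7.42 FPKM in the 6 libraries without IFNT and 5.51 to 6.54 in GB, a difference of −0.23 against GA that did not pass (adjusted p = 0.0702). Without the variance trend it passed against GA (0.0381) and against CON (0.0420). ITGA7, ITGA9, ITGA10 and ITGA11 were 0.31 to 1.58 FPKM, and none passed in any comparison.

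**Figure D4:**
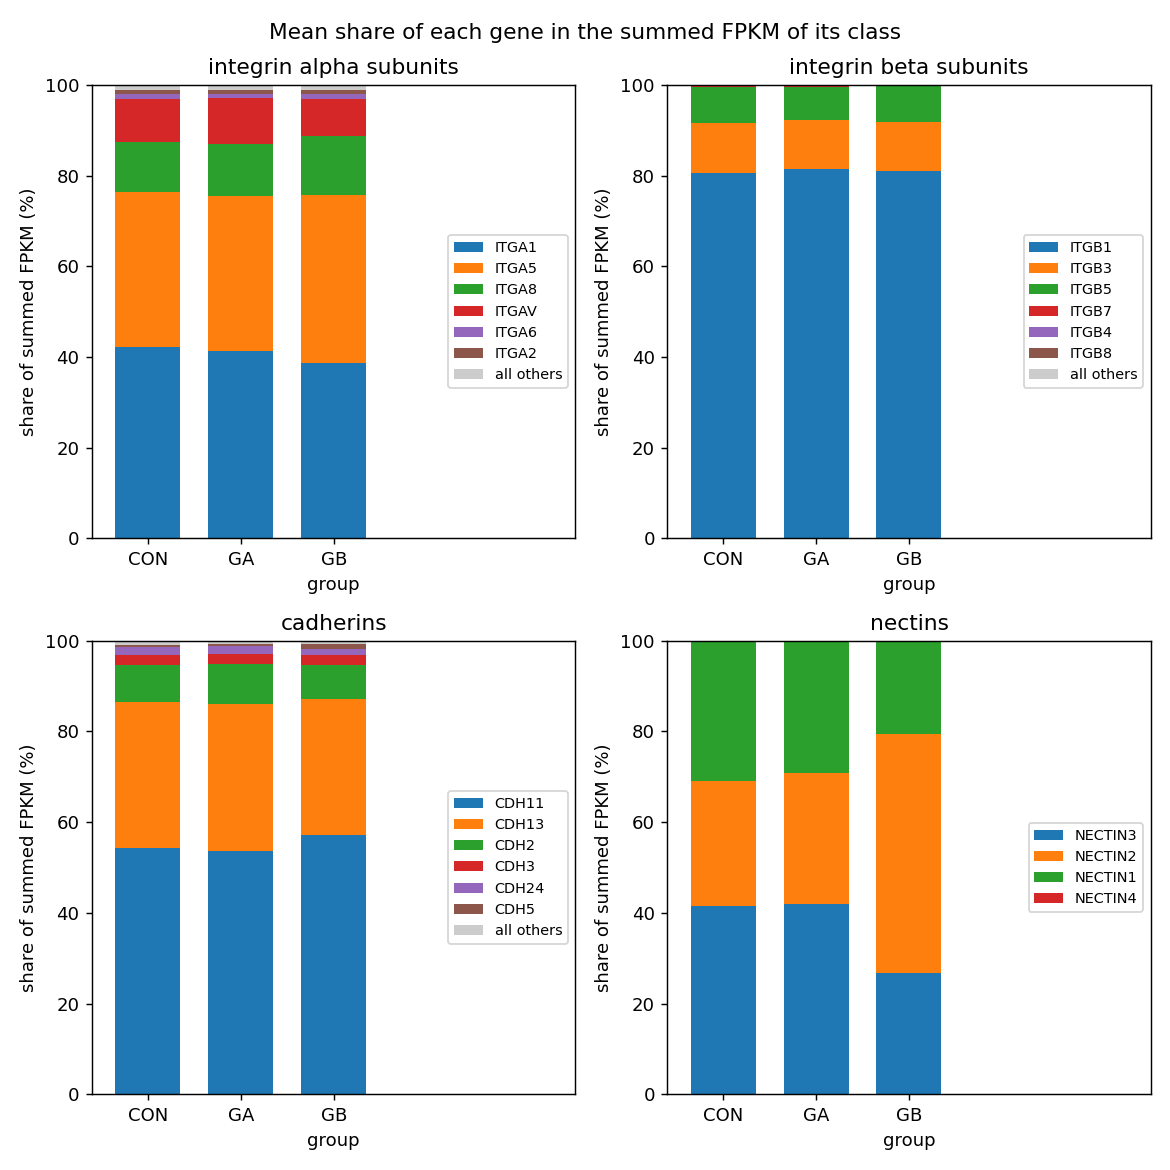
Share (percent) of the summed FPKM of each gene class held by its members in CON, GA and GB, as the mean of 3 libraries, for integrin alpha and beta subunits, cadherins and nectins. NECTIN2 went from 27.7% of the nectin sum in CON to 52.6% in GB, whereas ITGB1 held 80.5% to 81.5% of the integrin beta sum in all groups.

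Among integrin beta subunits, ITGB1, partner of most alpha subunits measured here, was 875, 864 and 868 FPKM in CON, 911, 920 and 912 in GA, and 811, 820 and 846 in GB. The groups did not overlap, with GA highest and GB lowest. ITGB1 fell in GB vs. GA (−0.15, SE 0.032, adjusted p = 0.00829), and this call was lost with median-of-ratios scaling (adjusted p = 0.164). Its differences in GB vs. CON (−0.073, adjusted p = 0.111) and in GA vs. CON (0.074, adjusted p = 0.250) did not pass. Its share of the beta sum was 80.5 ± 0.935%, 81.5 ± 0.106% and 81.0 ± 0.624% in CON, GA and GB, while the sum itself was 1079 ± 7.02, 1121 ± 7.45 and 1020 ± 15.9 FPKM.

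ITGB3 and ITGB5 pair with ITGAV. ITGB3 was 116, 129 and 116 FPKM in CON, 118, 123 and 117 in GA, and 115, 109 and 110 in GB. GB was below the other 6 libraries, and the difference against GA, −0.11 (95% confidence interval −0.23 to 0.014), did not pass (adjusted p = 0.174). ITGB5 was 81.7 to 89.6 FPKM in CON, 81.9 to 83.4 in GA, with 78.4 to 80.7 in GB, and did not pass, except in GB vs. CON with quantile normalization (adjusted p = 0.0436). The ratio of ITGAV to ITGB3 was 0.702 ± 0.056 in CON, 0.776 ± 0.038 in GA and 0.665 ± 0.029 in GB.

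ITGB7, a subunit of lymphocyte integrins, was low and had the most negative fold change of the tested members. It was 2.2, 1.77 and 2.98 FPKM in CON, 1.99, 2.24 and 2.35 in GA, and 1.43, 1.01 and 1.07 in GB, with every GB library below the rest. ITGB7 fell in GB vs. CON (−0.74, adjusted p = 0.0135) under every alternative and in GB vs. GA (−0.70, SE 0.18, adjusted p = 0.02), a call lost without GA2, GA3, GB2 or GB3 (adjusted p = 0.0591 to 0.0665). The summed level of the 6 immune markers analysed here was 43.8 to 46.9 FPKM in CON, 41.5 to 44.1 in GA, with 35.8 to 44.4 in GB, and the part of immune cells in the ITGB7 value was not tested. ITGB4, the laminin-binding partner of ITGA6 in hemidesmosomes, was 1.26 to 2.05 FPKM and ITGB8, a partner of ITGAV, 0.38 to 1.06 FPKM, and neither passed. Without the variance trend ITGB4 passed in GB vs. CON (adjusted p = 0.0137).

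The cadherins CDH13, CDH2 and, in GB vs. CON, CDH11 and CDH24 fell, and CDH5 rose in GB vs. GA. CDH13, a cadherin anchored to the membrane by a lipid, was 72.5, 78.6 and 72.8 FPKM in CON, 68.7, 74.3 and 70.2 in GA, and 61.9, 56.8 and 60.8 in GB. CDH2, the neural cadherin shared by many mesenchymal cells, was 19.3, 18.8 and 19.4 FPKM in CON, 21.4, 18.7 and 18.4 in GA, and 14.7, 16.1 and 14.4 in GB. For both genes all GB libraries were below the other 6, and CON and GA overlapped. CDH13 fell in GB vs. GA (−0.25, SE 0.055, adjusted p = 0.00912), a call lost with median-of-ratios scaling (0.0720), and in GB vs. CON (−0.32, adjusted p = 0.00218). CDH2 fell in both (−0.36, SE 0.073, adjusted p = 0.00591 and −0.34, adjusted p = 0.00689) under every alternative. The summed stromal fibroblast markers given above were also lowest in GB, where 6 of the 10 fell and 1 rose against GA, and their part in these cadherin values was not tested.

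CDH11 was 125, 122 and 129 FPKM in CON, 117, 119 and 117 in GA, and 116, 117 and 112 in GB. CON was above the other groups, and GA and GB overlapped. CDH11 fell in GB vs. CON (−0.13, adjusted p = 0.0329), a call lost without CON1, CON3, GA1, GA2, GB1, GB2 or GB3 (adjusted p = 0.0518 to 0.106), without the variance trend (0.0609), in the fit of only CON and GB (0.0750) and with a replicate block (0.0633). CDH24 was 3.79 to 4.40 FPKM in CON, 3.05 to 3.97 in GA, with 2.57 to 3.20 in GB, and fell in GB vs. CON (−0.43, adjusted p = 0.0286), a call lost without CON2, CON3, GB1 or GB2 (0.0531 to 0.0905). Its difference of −0.28 in GB vs. GA did not pass (adjusted p = 0.135). The summed cadherin level was 231 ± 3.02 FPKM in CON, 219 ± 2.77 in GA and 200.2 ± 3.28 in GB. CDH11 held 54.2%, 53.7% and 57.3% of it.

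CDH5, the cadherin of endothelial junctions, was 1.63, 1.01 and 1.65 FPKM in CON, 0.85, 0.99 and 1.19 in GA, and 2.52, 1.55 and 1.75 in GB. GB was above GA and overlapped CON. CDH5 rose in GB vs. GA (0.68, SE 0.21, adjusted p = 0.0395), a call lost without GA1, GA2, GA3, GB1 or GB3 (adjusted p = 0.0566 to 0.132), and its difference in GA vs. CON was −0.34 (adjusted p = 0.399). The summed level of 9 endothelial markers was 146 to 150 FPKM in CON, 146 to 158 in GA, with 185 to 193 in GB, nearly all of it FLT1 (138 to 187 FPKM). Of the 9 markers, 5 were under 0.5 FPKM in every library, among them PECAM1 (0.04 to 0.26 FPKM) and VWF (0.30 to 0.40 FPKM). In GB vs. GA, FLT1 passed as higher and EGFL7, another marker of the list, as lower. The part of endothelial cells in the CDH5 value was not tested.

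CDH3, the placental cadherin, was 3.88 to 5.19 FPKM in overlapping groups. CDH26, a cadherin of epithelia, was 0.65, 0.80 and 0.68 FPKM in CON, 0.19, 0.32 and 0.51 in GA, and 0.52, 0.56 and 0.74 in GB. GA was below both other groups, and its difference from CON, −0.54, did not pass (adjusted p = 0.223).

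JAM2 had its highest level in GA. It was 14.8, 13.4 and 13.1 FPKM in CON, 18.2, 17.3 and 21.4 in GA, and 13.7, 14.7 and 14.0 in GB. Every GA library was above the other 6, and CON and GB overlapped. JAM2 fell in GB vs. GA (−0.41, SE 0.087, adjusted p = 0.00766) under every alternative. Its difference in GA vs. CON was 0.44 (adjusted p = 0.0663), past no threshold after adjustment.

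JAM3, which binds JAM2 across the junction, was 47.3, 57.1 and 50.1 FPKM in CON, 50.3, 47.9 and 55.4 in GA, and 46.2, 41.2 and 42.2 in GB. GB was below the other 6 libraries. JAM3 fell in GB vs. CON (−0.25, adjusted p = 0.0471), a call lost without CON2, CON3, GA1, GA2, GB2 or GB3 (adjusted p = 0.0527 to 0.136) and, in a range of 0.0656 to 0.0824, with no filter, median-of-ratios scaling, no variance trend, only CON and GB, or a replicate block. Its difference in GB vs. GA was −0.24 (adjusted p = 0.0571), which passed in the fit of only GA and GB (0.0394) and without CON2 (0.0283). F11R, the JAM of epithelial tight junctions, was 0.71, 0.74 and 0.43 FPKM in CON, 1.10, 1.69 and 1.3 in GA, and 0.66, 1.70 and 0.44 in GB. GA was above CON, but the GB values spread over nearly the whole range, and the difference in GA vs. CON, 0.73 (95% confidence interval 0.021 to 1.43), did not pass (adjusted p = 0.248). Without GB2, F11R was lower in GB vs. GA (−0.82, adjusted p = 0.0424).

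The 20 members that were not tested comprised ITGA4, ITGB2, ITGB6, NECTIN4, VCAM1, ICAM4, ICAM5 and the cadherins CDH1, CDH4, CDH6 to CDH10, CDH15 to CDH19 and CDH23. Of these, 18 were under 0.5 FPKM in every library, with ICAM4 reaching 0.61 and CDH19 0.84 FPKM in single libraries. ITGB6, a receptor subunit of epithelia, was listed at 0 in 8 of the 9 libraries, and CDH16 and CDH18 likewise. ITGB2, the common beta subunit of leukocyte integrins, was 0 to 0.12 FPKM and ITGA4 0.03 to 0.21 FPKM. At such levels the presence or change of most of these transcripts could not be assessed from values given to 2 decimals. VCAM1 was 0.10 to 0.45 FPKM over the 9 libraries, and its fit with no filter is given above.

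Genes that work with these receptors were described from fixed lists, which were also chosen with earlier results of these data known. Of 27 tested integrin adaptors and focal adhesion genes, none was higher and 10 were lower in GB vs. GA, while TNS3 rose and 11 fell in GB vs. CON. The median was −0.15 in the first and −0.10 in the second. Over all tested genes, 9.87% were higher and 19.2% lower in GB vs. GA, and 16.2% higher and 17.3% lower in GB vs. CON. With median-of-ratios scaling, 1594 of all genes were lower in GB vs. GA, in place of 2409. The lower genes in GB vs. GA were VCL, PXN, ILK, LIMS2, PARVA, TNS2, KANK1, KANK2, TGFB1I1 and FBLIM1. FBLIM1, a filamin-binding adaptor, was 252 to 259 FPKM in GA and 210 to 214 FPKM in GB (−0.28). LIMS2, which binds ILK, fell by 0.40 on the log2 scale, and KANK2, which binds talin, by 0.33.

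Of 17 tested integrin ligands other than collagens, 2 were higher and 9 lower in GB vs. GA (9.87% and 19.2% of all genes). In GB vs. CON the same test passed 2 higher and 8 lower genes (16.2% and 17.3% of all genes). The median was −0.17 in each comparison. THBS1, thrombospondin-1, was 4157 to 4539 FPKM in GA and 5762 to 5844 FPKM in GB (0.41), and FBLN5 also rose. LAMB1, a laminin beta chain, was 339 to 345 FPKM in GA and 255 to 261 FPKM in GB (−0.41). SPP1, which encodes osteopontin, differed by −0.22 and FN1, fibronectin, by −0.17 in GB vs. GA, and both passed there but not with median-of-ratios scaling.

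Of 11 tested catenin and adherens junction genes, none rose and 3 fell in GB vs. GA (9.87% and 19.2% of all genes). The 3 were CTNNAL1 (−0.34), AFDN (−0.31), which encodes the nectin anchor afadin, and ARVCF, a relative of p120-catenin. ARVCF was 4.80, 7.22 and 5.11 FPKM in GA and 2.73, 1.81 and 2.99 FPKM in GB, without overlap, and was called lower (−1.05). Its log2 fold change was closer to 0 than the fold threshold with a pseudocount of 1, with median-of-ratios or quantile scaling, and without GA2 (−0.88) or GB2 (−0.87). In GB vs. CON, CTNNA3 and JUP rose, and AFDN and ARVCF fell (16.2% and 17.3% of all genes). ARVCF was called lower there too (−1.10, adjusted p = 0.00207 by limma). Its value was inside the fold threshold with a pseudocount of 1 (−0.99) and without GB2 (−0.92). Of 6 tested tight junction partners of JAM proteins, PARD3 (−0.45) and PARD6B (−0.72) fell in GB vs. GA, beside 19.2% of all genes. PARD6B did not pass without GA1, GA3, GB2 or GB3 (adjusted p = 0.0598 to 0.0870) nor in the fit of only GA and GB (0.0504).

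Of 13 tested Ig-type adhesion genes outside the symbol rule, 2 rose and 5 fell in GB vs. GA (9.87% and 19.2% of all genes). ALCAM and PVR rose, and BCAM, CADM1, CADM4, CXADR and CLMP fell. In GB vs. CON ALCAM rose and those 5 fell (16.2% and 17.3% of all genes). The log2 fold change of CXADR in GB vs. CON was −1.38 to −1.11 over the alternatives, beyond the fold threshold in each. CXADR, the coxsackievirus and adenovirus receptor, was 6.14, 4.66 and 6.19 FPKM in GA and 2.73, 1.95 and 2.33 FPKM in GB, and was called lower (−1.12), though not with a pseudocount of 1. CADM1 was 24.1 to 24.4 FPKM in GA and 13.2 to 14.3 FPKM in GB (−0.81), and CADM4 fell by 0.98 on the log2 scale. ALCAM rose (0.39). PVR, the closest relative of NECTIN2 in receptor binding, rose by 0.25, a call lost without GA1, GA3, GB1 or GB2 (adjusted p = 0.0504 to 0.0855). The ratio of NECTIN2 to PVR was 1.04 ± 0.090 in CON, 1.21 ± 0.134 in GA and 3.02 ± 0.190 in GB. ITGAE, the alpha subunit that pairs with ITGB7 and lies outside the symbol rule, was 6.15, 5.93 and 5.68 FPKM in GA and 2.85, 2.68 and 3.43 FPKM in GB and fell (−0.89, adjusted p = 0.00085). No gene of these 6 lists passed in GA vs. CON. These counts are read beside the shares of all genes given above.

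All 52 symbols matched the RefSeq annotation of ARS-UCD2.0, which is not the build of the deposited values and was used only for the order of genes. Members next to each other, with no protein-coding gene between, differed widely in level. ICAM1 (mean 137 FPKM over the 9 libraries) was followed by ICAM4 (0.193) and ICAM5 (0.102), CDH11 (119) lay between CDH8 (0.196) and CDH5 (1.46), ITGA1 (365) was next to ITGA2 (6.89), and CDH3 (4.55) next to CDH1 (0.0633). In the same annotation 23 members overlap another gene, 8 of them a protein-coding one. These are ITGA1 with PELO, ITGA2 with MOCS2, ITGA4 with CERKL, ITGA7 with TMT1B, F11R with TSTD1, CDH3 with ZFP90, CDH4 with TAF4, and CDH23 with VSIR and C28H10orf105. Whether strand was used in counting is not given in the sources used here, so reads of such pairs may not have been told apart. NECTIN2 overlaps a pseudogene in that annotation.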

How the data were processed

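RNA-seq of 9 cultures of primary cells, described in the study as bovine endometrial epithelial cells from Holstein uteri, was used. The authors made directional mRNA libraries, trimmed reads with fastp 0.21.0, removed ribosomal reads with Bowtie2, aligned with HISAT2 2.2.1 to ARS-UCD1.2 and deposited RSEM 1.3.3 FPKM values to 2 decimals. Counts were not used here. No annotation release is given in the sources used here. The study's own tests ran on counts, and its thresholds (an adjusted p under 0.05 and an absolute log2 fold change above 1) were kept here. Groups came from the sample labels.

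From the deposited FPKM, log2(FPKM + 0.5) was computed for the 12578 of 17162 genes with a mean of at least 0.5, and a single model of the 9 libraries, with no covariate and a variance trend, was fitted with limma 3.58.1 in R 4.3.3. P-values were two-sided and adjusted over all tested genes by Benjamini-Hochberg. The scripts were tested on simulated data. An exact permutation test of 3 against 3 cannot go below p = 0.1 and was not used. Values are the mean ± SD of 3 libraries. Named genes were the members passing at an adjusted p under 0.05, the 2 highest of each class, a fixed set of known members, and in the other lists the called genes and up to 4 of highest absolute log2 fold change. Other members and SPP1, FN1 and FBLN5 were added after their values were seen. The members and lists were chosen with earlier results of these data known. Alternatives were another pseudocount, filter, scaling, fit and replicate block, and each library left out. No library pair was identical (r between libraries 0.955 to 0.991). The study gives clean reads for each group, which were not used here. The size of the lowest FPKM steps of 12 to 21 genes, which is inverse to depth, was compared with CON1. As a rough guide, it put the depth of the other libraries at 0.900 to 1.08 times that of CON1.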

Additional observations from a re-analysis of the deposited data

How the results depend on the processing

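The number of members called was the same in 55 of 57 alternatives over the 3 comparisons. In GB vs. CON, leaving out 1 library gave 1 to 2 called members (2 without CON1 or GB3), where ICAM1 passed the fold threshold. Members with an adjusted p under 0.05 numbered 7 to 12 in GB vs. GA (7 without GA3, 11 with all libraries), 7 to 11 in GB vs. CON (7 without CON3 or GB2, 12 with all libraries) and 0 to 1 in GA vs. CON when 1 library was left out. In GA vs. CON the count was also 0 in the fit without the variance trend and in the fit of only CON and GA. The cause was not tested. Over 19 alternatives, the members' passing results gave 456 values, of which 385 still passed, 71 no longer did and none changed sign. Of 1350 values for tested members in comparisons where they had not passed, 12 newly passed, and VCAM1 passed with no filter. The calls of NECTIN2, ICAM1, ITGAV and CDH2 in both comparisons with GB, JAM2 in GB vs. GA, and CDH13, ITGA8 and ITGB7 in GB vs. CON held in every alternative run. Same-numbered libraries showed no shared deviation (correlations −0.031 to 0.077). The labels do not say whether the numbers pair the cultures, and a weak pairing could give such values, so the correlations cannot settle it. With a replicate block 11, 10 and 1 members passed in GB vs. GA, GB vs. CON and GA vs. CON. Without counts per gene, the precision of low values, such as those of VCAM1 and F11R, cannot be given.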
